A study of Mus musculus with 10 samples.

Results

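The small leucine-rich proteoglycans (SLRPs) are secreted proteins with a core of leucine-rich repeats that sit on collagen fibrils in the extracellular matrix. They were examined in bulk RNA from 10 subcutaneous CT26 tumors. CT26 is a mouse colorectal carcinoma line that grows in BALB/c mice. The 10 members were the rows named Ogn, Dcn, Lum, Bgn, Fmod, Prelp, Aspn, Omd, Podn and Ecm2 among 36009 gene rows, and all 10 names matched 1 row each. The family was selected on the response contrast of these same tumors, since Ogn stood among the largest differences between the response groups in an earlier look at the data. The other members came in because they belong to the family. The response contrast is therefore given for members as a description, with values, standard errors and the number past the threshold beside the share over all genes. No p-value is given for a member and nothing is concluded from these calls.

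The piece of each tumor that was sequenced had been removed at partial resection, before a poly(I:C) hydrogel was applied to what remained. Poly(I:C) mimics viral RNA and is used to stimulate innate immunity. Mice whose residual tumor regressed completely were responders (n = 6 tumors), and mice whose tumor grew without delay were non-responders (n = 4 tumors). All 10 mice were female, wild-type BALB/c animals carrying the same line, all tissue was untreated when collected, and the mice of the study were 8 to 12 weeks old. The total was 23374649 to 38042544 estimated counts per tumor. Levels are in CPM, counts relative to the library total after TMM scaling, unless another scale is named.

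SLRPs bind fibrillar collagen, set the width and spacing of fibrils, and hold growth factors such as TGF-beta in the matrix. When released, decorin and biglycan can also act as ligands of cell surface receptors. Many carry chondroitin, dermatan or keratan sulfate chains, and fibroblasts are their best known source in skin and in tumor stroma. In bulk tissue, fewer cells of a type and less RNA per cell cannot be told apart. The labelled cell type, colorectal carcinoma, was checked against 8 epithelial and colon markers. Epcam, Krt8, Krt18, Krt19 and Vil1 were under 1 CPM in every tumor. Krt20 averaged 29.1 CPM in responders and 52.9 CPM in non-responders (edgeR adjusted p = 0.0834). The fibroblast markers Pdgfra and Col1a1 averaged 339 and 802 CPM in responders, and 340.2 and 790.02 CPM in non-responders. Other fibroblast markers did differ, with Fap and Postn called lower in responders and none called higher by edgeR. The whole lists are given below.

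Among the members, 4 lie side by side on chromosome 13 of GRCm38, all on the plus strand. Ecm2 (ENSMUSG00000043631) spans 49504810 to 49532789, Aspn 49544443 to 49567565, Omd 49582462 to 49592822 and Ogn 49608046 to 49624501. Dcn (97479609 to 97518143) and Lum (97565128 to 97572703) are neighbors on chromosome 10. Prelp and Fmod lie on chromosome 1, Podn on chromosome 4 and Bgn on chromosome X. The 250 bases before the RefSeq start of each chromosome 13 member are shown because these neighbors had the largest differences among the 9 members that passed the filter on low counts. The RefSeq start of Ogn is 49608015, before the start of the span given above, and the other 3 starts are the same. The stretches are RefSeq sequence of GRCm38.p6, plus strand, 5′ to 3′, at chr13:49504560-49504809 (Ecm2), chr13:49544193-49544442 (Aspn), chr13:49582212-49582461 (Omd) and chr13:49607765-49608014 (Ogn). Capitals mark a match, on either strand, to the TATA box (TATAAA), the CCAAT box (CCAAT), the GC box (GGGCGG) or the AP-1 site (TGANTCA).
Ecm2: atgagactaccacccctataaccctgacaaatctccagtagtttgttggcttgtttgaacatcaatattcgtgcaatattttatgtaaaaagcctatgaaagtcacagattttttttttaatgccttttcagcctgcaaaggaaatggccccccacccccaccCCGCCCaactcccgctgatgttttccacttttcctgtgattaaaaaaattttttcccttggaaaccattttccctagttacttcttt
Aspn: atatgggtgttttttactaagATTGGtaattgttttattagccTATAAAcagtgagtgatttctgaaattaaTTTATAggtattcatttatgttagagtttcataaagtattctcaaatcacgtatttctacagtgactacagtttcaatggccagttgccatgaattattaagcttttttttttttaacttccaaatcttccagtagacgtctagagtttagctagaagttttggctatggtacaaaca
Omd: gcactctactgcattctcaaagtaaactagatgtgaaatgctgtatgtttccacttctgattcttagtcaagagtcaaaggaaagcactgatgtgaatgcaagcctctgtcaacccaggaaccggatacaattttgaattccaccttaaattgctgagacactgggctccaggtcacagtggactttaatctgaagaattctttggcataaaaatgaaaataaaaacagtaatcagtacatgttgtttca
Ogn: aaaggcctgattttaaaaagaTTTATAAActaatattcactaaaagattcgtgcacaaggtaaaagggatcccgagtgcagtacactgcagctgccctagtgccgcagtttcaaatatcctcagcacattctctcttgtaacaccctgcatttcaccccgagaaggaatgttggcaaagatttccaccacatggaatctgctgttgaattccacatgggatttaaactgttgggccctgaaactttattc

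The Aspn stretch held 2 matches to the TATA box and 1 to the CCAAT box, and the Ogn stretch held 2 overlapping matches to the TATA box, 1 on each strand. Relative to the RefSeq start, the TATA box matches began at -207 and -178 in Aspn and at -229 and -227 in Ogn. Ecm2 held 1 match to the GC box, and Omd held none of the 4 motifs. None of the 4 stretches held the AP-1 site. Among 32851 mouse promoter stretches of the same length, 12.4% held the TATA box, 33.8% the CCAAT box, 32.7% the GC box and 6.75% the AP-1 site. The 4 stretches were low in G and C, at 40.0% for Ecm2, 30.0% for Aspn, 38.4% for Omd and 42.0% for Ogn, against a median of 52.4% over all stretches. The share of all stretches with a lower G and C content was 11.8%, 1.47%, 9.05% and 15.9% in that order. The stretches of Bgn and Fmod held 64.4% and 51.2%. RefSeq stretches were matched for 8 of the 10 members, and Dcn and Lum had no entry. A match is a run of letters, not a bound site.

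Ogn encodes osteoglycin, also called mimecan, a class III member that binds collagen. Its level was 8.92, 5.56, 11.9, 5.15, 16.5 and 11.2 CPM in responders 1 to 6. In non-responders 1 to 4 it was 3.51, 1.90, 3.30 and 1.72 CPM. The groups did not overlap, since the lowest responder stood above the highest non-responder. The log2 fold change of responders over non-responders was 1.93 (SE 0.36), a 3.82-fold difference. Over all 10 tumors, both groups together, Ogn varied 9.57-fold between its highest and lowest tumors, and its counts ran from 51.0 to 588 per tumor.

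Omd encodes osteomodulin, a class II member with keratan sulfate chains that is best known from bone. Responders had 4.10, 4.09, 6.12, 3.73, 5.82 and 6.63 CPM of Omd. Non-responders had 2.02, 2.54, 2.56 and 2.08 CPM. These groups also did not overlap, and the log2 fold change was 1.15 (SE 0.19).

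Aspn encodes asporin, a class I member with an aspartate-rich end and no chondroitin, dermatan or keratan sulfate chain. It was at 17.6, 9.77, 21.8, 11.4, 25.0 and 17.8 CPM in responders and at 16.8, 7.80, 8.45 and 9.41 CPM in non-responders. Here the groups overlapped, because non-responder 1 stood above responders 2 and 4. The log2 fold change was 0.70 (SE 0.29). Ecm2 encodes a leucine-rich matrix protein related to class I. It was at 6.03, 6.18, 7.43, 5.15, 7.58 and 7.57 CPM in responders and at 3.67, 5.90, 4.12 and 3.89 CPM in non-responders. Non-responder 2 stood above responder 4, and the other tumors were separated by group, with a log2 fold change of 0.60 (SE 0.16).

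**Figure D1:**
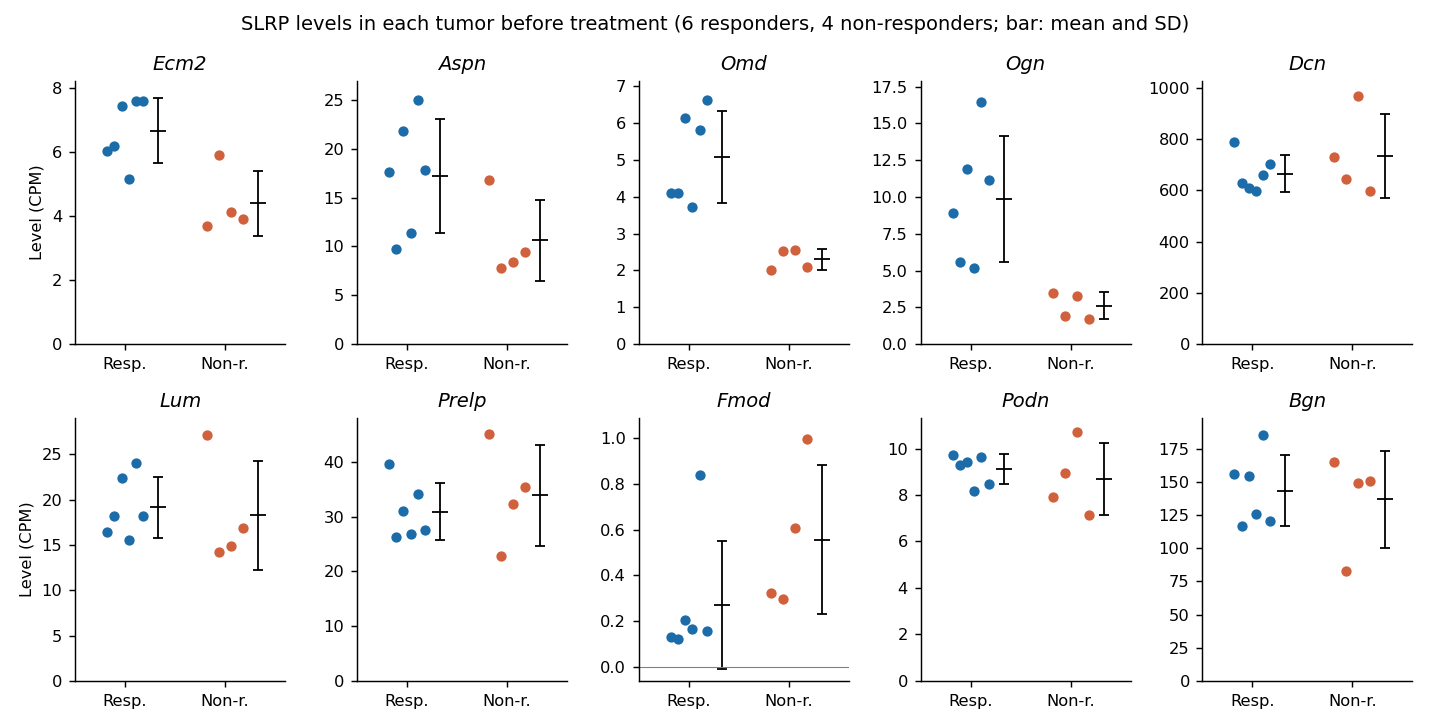
Level of each SLRP in CPM (y axis, linear) in each of 6 responder tumors (blue) and 4 non-responder tumors (orange), with the mean and SD of each group as a black bar. Ogn and Omd do not overlap between groups, and Ecm2 and Aspn overlap in part. Fmod also overlaps in part but in the other direction, with 5 of 6 responders below all non-responders. The other members overlap widely.

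In the edgeR quasi-likelihood fit across all genes, 3 of the 9 members tested were past an adjusted p of 0.05, Ogn, Omd and Ecm2, each with higher levels in responders, where 8.06% of the 16041 genes tested passed in either direction and 4.71% passed with higher levels in responders. Groups did not overlap for 2 of 9 members, Ogn and Omd, where 5.84% of all genes tested were separated in that direction. These shares are printed beside each other as a description, because the contrast had a part in choosing the family, and they are no evidence about it. The median log2 fold change was 0.92 over the 4 chromosome 13 members and 0.07 over the 5 other members tested, against -0.0086 over all genes tested. The calls were lost without responder 3, non-responder 1 or non-responder 4, which each left 0 members past the threshold. Ecm2 was past the threshold in only 7 of the 18 settings fitted, fewer than Ogn or Omd. Over the 18 settings fitted, all estimates of the 4 chromosome 13 members stayed above 0, with Ogn between 1.27 and 2.12, Omd between 0.79 and 1.23, Aspn between 0.33 and 1.02 and Ecm2 between 0.23 and 0.78.

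**Figure D2:**
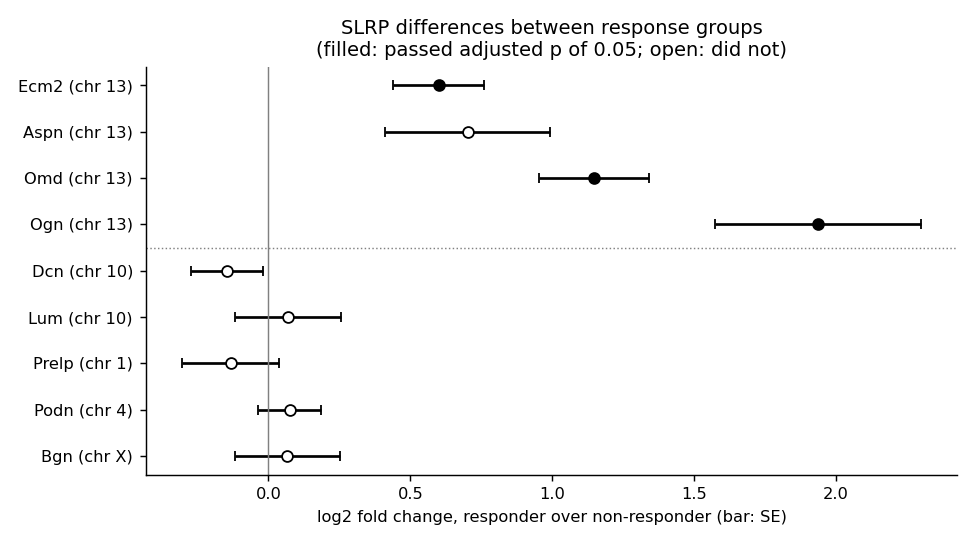
Log2 fold change of responders over non-responders (x axis) for the 9 SLRPs tested, with the standard error as a bar. Members of the chromosome 13 cluster stand above the dotted line, from 0.60 for Ecm2 to 1.93 for Ogn, and the members below it range from -0.15 for Dcn to 0.07 for Podn.

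The members on other chromosomes overlapped between groups and none was called. Dcn encodes decorin, the class I member that regulates collagen fibril width and binds TGF-beta. Its level was 789.6, 628, 609, 599, 659 and 701 CPM in responders and 730.2, 646, 966 and 597 CPM in non-responders, and the log2 fold change was -0.15 (SE 0.13). Non-responder 3 was the highest tumor and non-responder 4 the lowest, so the non-responders spanned the whole range of Dcn. Bgn encodes biglycan, the class I member closest to decorin and a ligand of Toll-like receptors. It was at 156, 117, 155, 126, 186 and 121 CPM in responders and at 165, 83.2, 149 and 150.4 CPM in non-responders. Its log2 fold change was 0.07 (SE 0.18), with non-responder 2 the lowest of all tumors.

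The class II members Lum and Prelp overlapped between the groups as well. Lum encodes lumican, a keratan sulfate proteoglycan that spaces collagen fibrils, and its lowest, median and highest responders were at 15.5, 18.2 and 24.01 CPM. Non-responders had 27.2, 14.2, 14.9 and 16.8 CPM of Lum, and the log2 fold change was 0.07 (SE 0.19). Prelp encodes a protein that links collagen to heparan sulfate chains of basement membranes. Its lowest, median and highest responders were at 26.3, 29.3 and 39.7 CPM, and non-responders had 45.1, 22.7, 32.3 and 35.5 CPM. The log2 fold change of Prelp was -0.13 (SE 0.17). For both genes non-responder 1 was the highest tumor and non-responder 2 the lowest.

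Podn encodes podocan, a class V member, and was the most even member across tumors. It was at 9.72, 9.27, 9.42, 8.18, 9.62 and 8.45 CPM in responders and at 7.91, 8.96, 10.7 and 7.12 CPM in non-responders, with 1.504-fold between the highest and lowest tumors. The log2 fold change was 0.07 (SE 0.11). Fmod encodes fibromodulin, a class II member that takes part in collagen cross-linking and is abundant in tendon. It had 4 to 33 counts per tumor and was removed by the filter on low counts. Responders had 0.133, 0.125, 0.206, 0.165, 0.839 and 0.157 CPM and non-responders 0.323, 0.299, 0.607 and 0.995 CPM. Responder 5 stood among the non-responders and the other responders stood below them. In a fit without the filter its log2 fold change was -1.02 (SE 0.56).

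Per kilobase of transcript, Dcn had by far the highest level of the family. It averaged 394 ± 65.3 CPM per kilobase (SD, n = 10 tumors), which was 5.58 times the level of Bgn at 70.5 ± 14.6. Dcn stood above Bgn in 10 of 10 tumors, and Bgn stood above Prelp in 10 of 10. Prelp (8.88 ± 1.87), Lum (7.67 ± 1.76) and Aspn (6.29 ± 2.60) followed, and these neighbors in the order were not separated, since Prelp exceeded Lum in 7 tumors and Lum exceeded Aspn in 6. Podn (3.10 ± 0.36), Ogn (2.71 ± 1.93) and Omd (2.09 ± 0.90) came next, with Podn above Ogn in 6 tumors and Ogn above Omd in 7. Ecm2 averaged 1.599 ± 0.42 and Fmod 0.211 ± 0.173 CPM per kilobase. These levels depend on the length used. With the merged exon length of each gene in place of the median transcript length, Dcn fell to 119 and Bgn to 23.1 CPM per kilobase, Bgn stood at 2.60 rather than 7.94 times Prelp, and only Ogn and Podn changed places in the order.

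The make-up of the family by transcript therefore rested on Dcn. It made up 73.0% to 85.1% of the summed level per kilobase in each tumor, and Bgn made up 9.66% to 18.1%. With merged exon length the share of Dcn was 60.7% to 77.2%. The summed level was 431 to 563 CPM per kilobase in responders and 431 to 651 in non-responders, so the totals overlapped. All members together took 0.0795% to 0.118% of the counts of a tumor. Relative to Dcn, with both in CPM per kilobase, Ogn stood at 5.89 to 17.1 per 1000 of Dcn in responders and at 1.97 to 3.30 in non-responders. The summed level of the 4 chromosome 13 members was 25.4 to 54.8 CPM in responders and 17.1 to 26.001 CPM in non-responders, with non-responder 1 above the 2 lowest responders.

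The chromosome 13 members lie within the span of another gene, which allowed a comparison with genes that were not chosen. Cenpp, which encodes a centromere protein, runs on the minus strand from 49464023 to 49652785 and encloses all 4 members, and its exons share 7 bases with those of Aspn and none with the other members. It averaged 6.55 CPM in responders and 5.96 CPM in non-responders, a log2 difference of 0.13 (SE 0.14) that did not pass (adjusted p = 0.578 with edgeR). Without strand in the counting, reads from overlapping exons cannot be told apart, and the strand setting is not given in the sources used here. On chromosome 4, Podn overlaps the span of Scp2, a sterol carrier gene, with no shared exon base, and the log2 difference of Scp2 was 0.13 (SE 0.06) and did not pass (adjusted p = 0.172 with edgeR). Over all members, 22 other annotated genes overlapped a member or lay within 100000 bases of one. Of the 13 neighbors tested, edgeR called 0, with 4 at an unadjusted p under 0.05, and DESeq2 called 1. EdgeR called 1 when responder 6 or non-responder 2 was left out.

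**Figure D3:**
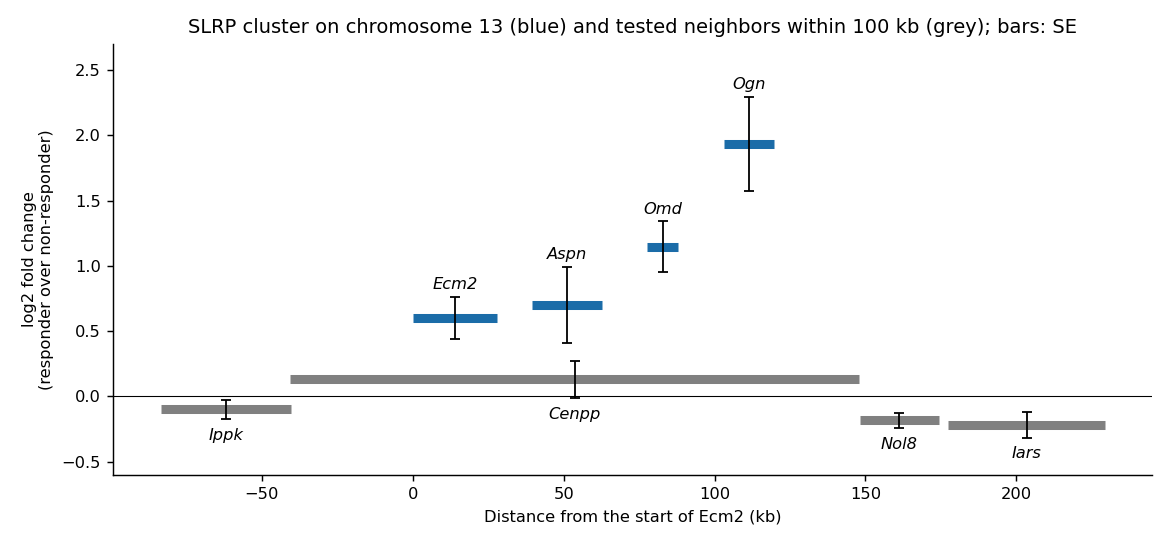
Log2 fold change of responders over non-responders (y axis) for the 4 SLRPs of the chromosome 13 cluster (blue) and the 4 tested neighbors within 100000 bases (grey), placed by distance from the start of Ecm2 in kilobases. Horizontal bars span each gene, vertical bars are standard errors, and the SLRPs stand between 0.60 and 1.93 while the neighbors stand between -0.22 and 0.13.

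Variation among tumors of the same response was examined apart from the response contrast, by centering log2 CPM within each group. Ogn was paired with each of the 8 other members tested, and p-values came from every order of tumors within groups (exact permutation test, two-sided, 8 pairs, Benjamini-Hochberg). Ogn and Aspn varied together across the 10 tumors, with Pearson r = 0.84 (exact permutation p = 0.00503, adjusted p = 0.0403) and Spearman rho = 0.84 (exact permutation p = 0.00503, adjusted p = 0.0403). In the 6 responders alone r was 0.965 (exact permutation p = 0.00417, adjusted p = 0.0333). Among responders, responder 5 was highest and responders 2 and 4 lowest for both genes. Responders 2 and 4 lay farthest from the median of centered Ogn, and without them r was 0.65 (exact permutation p = 0.108), which ended the call. The loss was not particular to them, since leaving out any 1 of 8 tumors, all but non-responders 3 and 4, did the same.

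The other 7 pairs did not pass. Pearson r with Ogn was 0.66 for Omd, 0.64 for Lum, 0.61 for Bgn, 0.50 for Prelp, 0.48 for Dcn, 0.41 for Podn and 0.34 for Ecm2, with adjusted p from 0.163 to 0.344 (exact permutation test). All 8 coefficients were positive, and the tumors share library and scaling across genes. In the 6 responders alone, r with Ogn was 0.879 for Ecm2, 0.835 for Omd, 0.807 for Lum and 0.749 for Bgn. It was 0.518 for Prelp, 0.475 for Podn and 0.278 for Dcn. None of these 7 pairs passed in responders, with adjusted p from 0.128 to 0.606 (exact permutation test).

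**Figure D4:**
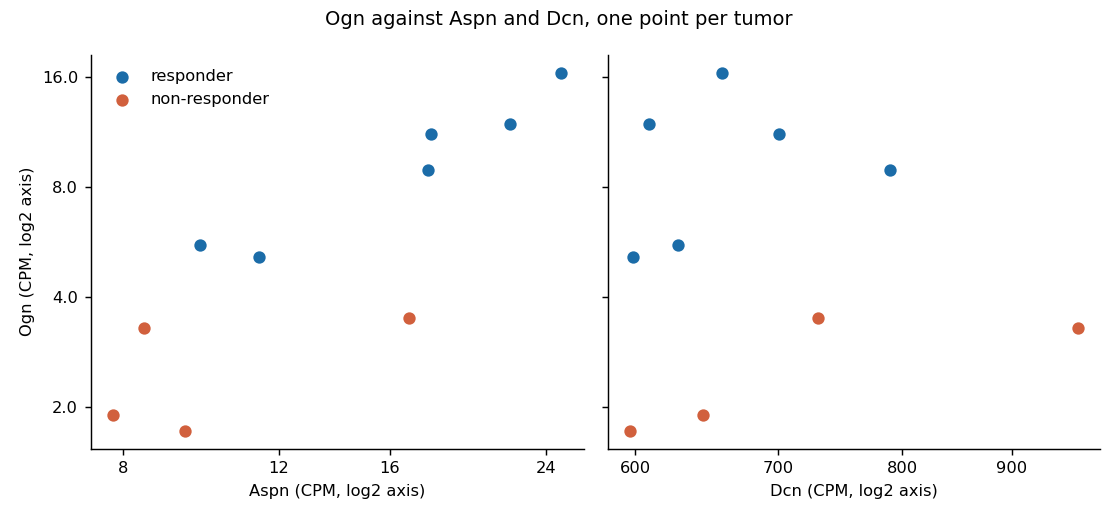
Ogn in CPM against Aspn (left) and Dcn (right) in CPM, both on log2 axes, with 1 point for each of 6 responders (blue) and 4 non-responders (orange). Within responders Ogn follows Aspn with r = 0.965, the highest among the members paired with Ogn. The r with Dcn was 0.278 in the same tumors, the lowest among them.

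Markers of several other cell types differed between the response groups, and they are given here for whole lists. Over all genes tested, edgeR called 4.71% higher and 3.35% lower in responders, the shares beside every count of markers called. The 10 skeletal muscle markers summed to 543.8 to 1529 CPM in responders and 402 to 543.5 CPM in non-responders, and Acta1, Ckm, Myh1 and Myl1 were called higher. The 9 adipocyte markers summed to 24.6 to 97.3 CPM in responders and 11.9 to 36.3 CPM in non-responders, with 0 of 7 tested called by edgeR although all 7 had an unadjusted p under 0.05 (adjusted p 0.0503 to 0.0716), and with Cidea and Lep under 1 CPM in every tumor. The 6 resting fibroblast markers overlapped between groups, at 446 to 525 and 442 to 482 CPM, with 0 called by edgeR and 1 at an unadjusted p under 0.05. The 9 activated fibroblast markers ran from 3408 to 4188 CPM in responders and from 2765 to 5149 CPM in non-responders. Of these, 2 of 9 were called, both lower, and 6 had an unadjusted p under 0.05. Fap, a fibroblast surface protease, fell by 0.78 on the log2 scale in responders relative to non-responders, and Postn, a matrix protein, fell by 0.77. Thy1 of the same list had a log2 fold change of 0.45 (edgeR adjusted p = 0.0942) and Col1a1 of 0.02 (edgeR adjusted p = 0.950).

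The remaining lists are given by the same sums. Pericyte and smooth muscle markers summed to 341 to 398 CPM in responders and 374 to 488 CPM in non-responders. In that list 1 gene, Des, was called higher and 1, Pdgfrb, lower. Within each response group, Des ranked the tumors in the same order as the summed skeletal muscle markers. It ran from 152 CPM in responder 5 to 63.5 CPM in responder 4. Schwann cell markers summed to 11.2 to 15.5 CPM in responders and 11.7 to 12.8 CPM in non-responders. Tendon and cartilage markers, which matter because Fmod is abundant in tendon, summed to 1.03 to 2.53 CPM in responders and 1.23 to 1.86 CPM in non-responders. Bone markers, which would bear on Omd, were not examined. Acan was at 0 in every tumor, and Tnmd, Comp and Col2a1 were under 1 CPM. Macrophage markers summed to 2860.1 to 4271 CPM in responders and 1991 to 2692 CPM in non-responders, with 5 of 7 called higher. Mast cell markers summed to 39.6 to 155 CPM in responders and 19.9 to 46.8 CPM in non-responders, with 1 of 4 called higher. Skin keratinocyte markers summed to 2.77 to 3.85 and 2.69 to 8.81 CPM, and the colorectal carcinoma markers to 17.5 to 42.1 and 40.3 to 84.8 CPM, with 0 called in either list by edgeR and with 0 and 3 genes at an unadjusted p under 0.05. The part of macrophage and mast cell content in the SLRP differences was not tested.

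With the skeletal muscle score as a covariate, the log2 fold changes were 1.27 (SE 0.42) for Ogn, 0.79 (SE 0.23) for Omd, 0.33 (SE 0.40) for Aspn and 0.27 (SE 0.18) for Ecm2. With the adipocyte score they were 1.98 (SE 0.59), 0.83 (SE 0.27), 0.91 (SE 0.47) and 0.23 (SE 0.19) in the same order. Neither of these fits called any member or any other of the 16041 genes with edgeR, with 993 and 1298 genes at an unadjusted p under 0.05. The skeletal muscle score was 5.10 to 6.76 in responders and 4.73 to 5.20 in non-responders. The adipocyte score was 0.702 to 3.17 in responders and -0.885 to 1.67 in non-responders. Both scores ran mostly with the response label, so these fits cannot tell score and response apart. With the fibroblast score the log2 fold changes were 2.04 for Ogn, 1.15 for Omd, 0.77 for Aspn and 0.60 for Ecm2, and 3 members were called. Each score is the mean log2 CPM of the tested markers, and the fibroblast score pools the resting and activated lists. It ran from 5.24 to 5.46 in responders and from 4.95 to 5.70 in non-responders. Its markers had estimates in both directions, which can cancel in the mean, so the part of fibroblast content was not tested by this fit. Each member was also correlated with these 3 scores within groups. None of the 27 pairs passed, with 4 at an unadjusted exact permutation p under 0.05, each with an adjusted p of 0.225. These were Ecm2 with the skeletal muscle score (r = 0.69) and with the adipocyte score (r = 0.70), and Prelp (r = 0.77) and Bgn (r = 0.76) with the fibroblast score. In the 6 responders alone none of the 27 pairs passed either. The highest r there was 0.973, for Lum with the skeletal muscle score (exact permutation p = 0.00278, adjusted p = 0.075). For Ogn with that score it was 0.703 (adjusted p = 0.469, exact permutation test).

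Genes that work with SLRPs were examined in the same fit, in 5 lists that hold no member. Of 86 partner genes tested, edgeR called 3 higher and 6 lower in responders, 10.5% of them in either direction. Over all genes tested, 4.71% were called higher, 3.35% lower and 8.06% in either direction. Groups did not overlap for 4 partner genes with higher levels in responders and for 5 with lower levels. Over all genes tested, 5.84% and 4.55% were separated in these directions. The same shares stand beside the counts of each list below. The list medians ran from -0.13 to 0.08, against -0.0086 over all genes tested. Among the 7 other leucine-rich matrix genes tested, which include the family relatives Kera and Optc, 0 were called by edgeR, 0 by DESeq2 and 0 had an unadjusted p under 0.05. The smallest p-values were those of Chadl, with a log2 difference of 0.33 ± 0.20 (SE; adjusted p = 0.292 with edgeR), and of Tsku, a secreted leucine-rich signaling regulator, with a log2 difference of -0.12 ± 0.08 (SE; adjusted p = 0.369 with edgeR).

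Of 24 enzymes of glycosaminoglycan chain synthesis, 1 rose, 1 fell and 22 did not pass. Dse, the epimerase that turns chondroitin into dermatan sulfate, was at 96.5, 89.5, 93.6, 86.4, 111 and 87.8 CPM in responders. Non-responders had 72.7, 84.1, 74.9 and 75.6 CPM of Dse. The groups did not overlap, and Dse rose by 0.29 on the log2 scale (edgeR adjusted p = 0.0386). Csgalnact1, which starts chondroitin chains, was at 25.6, 29.6, 26.6, 34.7, 21.6 and 26.4 CPM in responders. In non-responders it was at 49.98, 42.7, 38.2 and 43.9 CPM, without overlap, and it fell by 0.67 on the log2 scale (edgeR adjusted p = 0.0222).

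Of 24 fibrillar collagen and assembly genes, 0 rose, 2 fell and 22 did not pass, and 18 of the 24 estimates were below 0 with a median of -0.13. Bmp1, the proteinase that trims procollagen and the propeptides of several SLRPs, fell by 0.20 on the log2 scale (edgeR adjusted p = 0.0486). Adamts14, a procollagen N-proteinase, fell by 0.33 (edgeR adjusted p = 0.0401). Among 9 proteases known to cleave SLRPs, 0 rose, 1 fell and 8 did not pass. Mmp9, a gelatinase, was at 124 to 203 CPM in responders and at 348, 211, 204 and 310 CPM in non-responders. It fell by 0.68 on the log2 scale (edgeR adjusted p = 0.0443), and non-responder 3 stood just above the highest responder. Mmp3, which cleaves decorin, had a log2 fold change of -0.40 and did not pass (edgeR adjusted p = 0.0599).

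Of 22 receptors and signaling partners, 2 rose, 2 fell and 18 did not pass. Tlr2, a Toll-like receptor that biglycan can bind, was at 28.4, 26.6, 33.5, 26.005, 38.7 and 26.6 CPM in responders. Non-responders had 17.4, 20.98, 18.7 and 14.3 CPM of Tlr2, without overlap, and Tlr2 rose by 0.75 on the log2 scale (edgeR adjusted p = 0.0232). P2rx7, an ATP-gated channel that biglycan signaling also engages, rose by 0.28 on the log2 scale (edgeR adjusted p = 0.033). Egfr, a receptor that decorin binds, fell by 0.46 (edgeR adjusted p = 0.0334), and its groups overlapped in 1 tumor, non-responder 2 standing below responder 1. Ccn4, a matricellular protein that binds decorin and biglycan, fell by 0.82 (edgeR adjusted p = 0.0245). No partner gene was called without responder 3, non-responder 1 or non-responder 4, or with the skeletal muscle or adipocyte score as a covariate.

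**Figure D5:**
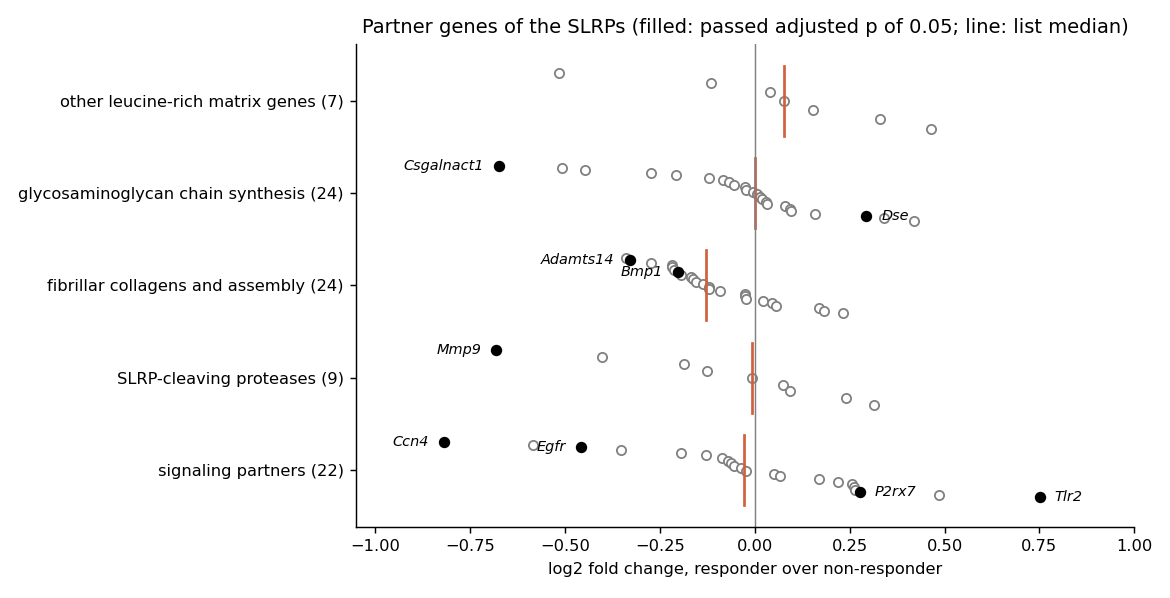
Log2 fold change of responders over non-responders (x axis) for the 86 partner genes tested, in 5 lists (rows, with the number tested). Filled points passed an edgeR adjusted p of 0.05, orange lines are list medians, and Tlr2 at 0.75 and Ccn4 at -0.82 are the outermost called genes.

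The genes whose centered log2 CPM followed Ogn most closely were described over the 10 tumors, with no test, among 13724 genes averaging at least 1 CPM. They were Dhx29 (r = 0.952), Chp2 (r = 0.939), Mok (r = 0.930), Cep19 (r = 0.907) and Tgfbr2 (r = 0.899), the last encoding a TGF-beta receptor. Those nearest to Dcn were Ext1 (r = 0.966), Ugt1a6a (r = 0.961), Enpp1 (r = 0.951), Akap5 (r = 0.928) and Fstl1 (r = 0.926). No gene stood in both sets of 5.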

How the data were processed

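RNA was sequenced from polyA RNA as 150 bp paired-end reads in 10 pre-treatment CT26 tumors. The authors reviewed reads with FastQC (v0.11.3), estimated transcript abundance with Kallisto (v0.43.0) and used tximport with the mm10 reference (GRCm38) to go from transcripts to genes. The deposited values are the authors' estimated counts per gene from that step, not scaled to depth, and 44.8% were not whole. The annotation release, tximport scaling and strand setting are not given in the sources used here. Estimated counts cannot fully separate genes that share sequence, and intervals and p-values rest on 6 and 4 tumors, each from a separate mouse per the design. No batch is given in the labels, and replicate numbers follow accession order and pair nothing.

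Counts were rounded, filtered with filterByExpr (minimum count 10, 16041 of 36009 genes kept) and TMM scaled. Rows without a gene name held 1.04% to 1.23% of the counts and were not named. Response groups were compared with edgeR 4.0.16 (glmQLFit and glmQLFTest, two-sided, R 4.3.3) over all genes. Adjusted p-values (Benjamini-Hochberg) were called under 0.05. DESeq2 1.42.0, other scalings, no filter, marker scores as covariates and leaving out each tumor were alternatives. Scripts were tested on simulated data. Gene positions are from GENCODE vM21, which matched 35991 identifiers. The members, partner lists and marker lists were chosen with earlier results of these data known. Named genes were all members, called partner genes (at most 4 per list by smallest p, and the 2 with the smallest p where fewer than 2 were called), neighbors overlapping a member, and the 5 genes most like Ogn and Dcn. Correlations used log2 CPM with a prior count of 2.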

Additional observations from a re-analysis of the deposited data

Results flagged for a closer look

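Fmod in responder 5 was at 0.839 CPM, where the next responder was at 0.206 CPM, and the gap took 0.886 of the range of the 6 responders, past Dixon's critical value. The summed skin keratinocyte markers in non-responder 2 were at 8.81 CPM, where the next non-responder was at 2.96 CPM, and the gap took 0.956 of the range of the 4 non-responders, also past Dixon's critical value. For both values a sample far from the rest of its group drew attention. These were 2 of 44 groups of values examined, where chance alone gives about 2.2. The cause was not tested for either value.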

How the results depend on the processing

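The 10 tumors limit these results. Genes called moved from 1293 to 2573 with the DESeq2 Wald test, and to 0 with the adipocyte or the skeletal muscle score as a covariate. Partner genes called moved from 9 to 19 with DESeq2 and to 0 with either score, and members called moved from 3 to 0 with either score. Neighbors called moved from 0 to 1 with DESeq2. Leaving out 1 tumor gave 0 to 1897 genes called, 0 to 3 members, 0 to 15 partner genes, 0 to 1 neighbors and 0 to 1 Ogn pairs. Without non-responder 4, non-responder 1 or responder 3, genes called fell to 0, 16 and 17, and with non-responder 2 or responder 4 left out they were 1897 and 1619. The remaining tumors gave 244 to 735 genes. Marker pairs called stayed at 0 under every alternative run. The log2 fold change of Cenpp, 0.13, was -0.27 with the adipocyte score and -0.00080 with the skeletal muscle score. Of the named partner genes and overlapping neighbors, 75 log2 fold changes under alternatives lost the call and 2 gained it. Lost calls of members are not in this count. Among all 391 log2 fold changes under alternatives, members included, 15 had the opposite sign. Those 15 belonged to Lum, Bgn, Dcn, Prelp, Podn and Cenpp, and 0 of them were called. Other scalings of the counts called 1287 and 1302 genes, and no filter called 931 genes and 2 members. The cause was not tested. No paired analysis was possible because the labels give no shared replicate numbers.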
